A study of Mus musculus with 8 samples.

Results

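The genes described here are 9 that are strongly expressed by the projection neurons of the striatum, namely *Drd1*, *Drd2*, *Adora2a*, *Gpr6*, *Ppp1r1b*, *Rgs9*, *Penk*, *Tac1* and *Tmem158*. They were chosen by name, and selected on earlier results of these same arrays in which several of them were lower in the mutant group, so their genotype difference is given below as a description without a test. Of the 9 genes, 8 had a probe set paired with that gene alone, out of 18194 genes so represented on the array. *Adora2a*, an adenosine receptor of the indirect pathway, was not analysed here.

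RNA was taken from the hypothalamus of mice of 10 weeks and hybridised to Affymetrix whole genome mouse arrays, on which a gene is read by 1 or more groups of short probes called probe sets. The 8 arrays fall into 4 wild type (WT1 to WT4) and 4 *Nestin-Pex5*-/- mice (KO7 to KO10, numbered as in the labels), all of a Swiss Webster background. *Pex5* encodes the receptor that imports enzymes into peroxisomes, and in the mutants a *Nestin-Cre* transgene deletes the *Pex5-loxP* allele in cells that descend from neural progenitors (neurons, astrocytes and oligodendrocytes), whereas microglia, which have another origin, are not targeted. The alleles carried by the wild type mice, the sex of the animals and the borders of the tissue piece are not given in the sources used here.

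Projection neurons make up most of the neurons of the striatum and use GABA as their transmitter. They fall into a direct pathway, with the dopamine receptor D1 and the substance P precursor *Tac1*, and an indirect pathway, with the dopamine receptor D2, the adenosine receptor *Adora2a* and the enkephalin precursor *Penk*. The striatum lies in the forebrain outside the hypothalamus, although hypothalamic neurons also use some of these genes, *Penk*, *Tac1* and *Drd2* among them.

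All values are log2 values from RMA, a procedure that subtracts background, gives all arrays the same distribution and merges the probes of each set into 1 value. Over all genes the median level was 7.75, and the highest of a gene's single-gene probe sets by mean over the 8 arrays stands for the gene. Levels are compared between arrays only, never between genes, since probe sets differ in brightness. A difference is the mean of the *Nestin-Pex5*-/- arrays minus the mean of the wild type arrays, with the standard error (SE) of a limma fit over all genes, and a fold is 2 to the power of that difference. *Pex5* itself read 8.66 ± 0.04 in wild type and 8.67 ± 0.07 in *Nestin-Pex5*-/- (mean ± SD, n = 4). Where its probes lie relative to the deleted part is not given in the sources used here, so this level is no check of the genotype.

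A pair of wild type arrays stood apart before any genotype is compared. WT4 differed by more than 2-fold from the other 3 wild type arrays, averaged, in 155 genes, WT3 in 63, and WT1 and WT2 in 18 and 23. Among the mutant arrays this number was 19 to 47. In WT3 the striatal genes were among the genes most raised. Of all 18194 genes, 48 were more than 2-fold above the average of WT1, WT2 and WT4, and 6 of the 8 were among them. Their selection on the genotype contrast favours genes high in a wild type array, so nothing is read from that count. WT4 had *Ttr*, the thyroid hormone carrier made by the choroid plexus, at 10.51, whereas WT1, WT2 and WT3 read 14.47 to 14.59. The values of the 8 genes are therefore given with and without WT3, and where WT4 decides a count or a direction, without WT4 too.

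The bases just before the start of transcription are shown for the 4 genes whose RefSeq promoter entry has its start of transcription at the annotated start of the gene (GRCm38.p6), 1 of them a dopamine receptor, 1 an orphan receptor, 1 a signalling protein and 1 a neuropeptide precursor. Each line gives 100 bases, read 5′ to 3′ on the gene's own strand. Capitals mark 3 motifs searched on both strands: the cyclic AMP response element TGACGTCA, its core TGACG, which the full element contains, and the GC box GGGCGG.
Drd1, chr13:54055659-54055758, minus strand: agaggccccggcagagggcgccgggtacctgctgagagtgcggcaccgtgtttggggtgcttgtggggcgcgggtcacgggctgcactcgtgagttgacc
Gpr6, chr10:41072291-41072390, minus strand: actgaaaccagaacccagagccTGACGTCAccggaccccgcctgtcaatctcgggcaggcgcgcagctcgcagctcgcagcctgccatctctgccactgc
Rgs9, chr11:109298182-109298281, minus strand: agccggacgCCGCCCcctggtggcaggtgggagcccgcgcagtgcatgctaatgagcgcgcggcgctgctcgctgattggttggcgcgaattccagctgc
Tac1, chr6:7554961-7555060, plus strand: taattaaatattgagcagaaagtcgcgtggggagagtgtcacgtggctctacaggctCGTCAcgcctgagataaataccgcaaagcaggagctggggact
The full cyclic AMP response element lay in the *Gpr6* entry, and 1.55% of all 32851 promoter entries hold it within the 250 bases before the start. Of the 6 entries of 5 of the striatal genes, 2 held the core, those of *Gpr6* and *Tac1*, against 17.8% of all entries. The GC box was in 4 of the 6 entries, against 32.7%. Outside the shown stretches, a TATA box (TATAAA) was in 1 of the 6 entries, that of *Rgs9*, against 12.4% of all. The stretch shown for *Drd1* has none of these motifs. These matches describe the letters in the window alone.

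The dopamine receptors and the orphan receptor were lower in *Nestin-Pex5*-/- mice on average. *Gpr6*, on chromosome 10 (41069977 to 41072290, GRCm38), encodes an orphan receptor that couples to stimulatory G proteins and is enriched in indirect pathway neurons. It read 7.64, 8.01, 9.48 and 7.12 in WT1 to WT4 and 6.94, 6.03, 6.98 and 5.56 in KO7 to KO10. WT3 was the highest array and KO10 the lowest, and every mutant array lay below every wild type array, although WT4 was only slightly above KO9 and KO7. The difference was -1.69 ± 0.49 (SE), a fold of 0.311. This put *Gpr6* in place 3 among all genes ordered from the most negative difference, from which nothing is read, as it was selected on this contrast. Its mean level of 7.22 was below the median of all genes (7.75), while the other 7 striatal genes were at or above it. Without WT3 the difference was -1.21 ± 0.36 and the fold 0.431. In this bulk tissue, fewer striatal cells in the piece, less RNA per cell and a change in hypothalamic neurons cannot be told apart. The same holds for every gene below.

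*Drd1*, the dopamine receptor that raises cyclic AMP in direct pathway neurons, lies on chromosome 13 (54051183 to 54055658). Its values were 8.32, 8.54, 10.04 and 7.30 in WT1 to WT4, and 7.27, 7.16, 7.73 and 6.86 in KO7 to KO10. WT3 was again the highest array, 3.98-fold above the average of WT1, WT2 and WT4, and WT4 lay inside the range of the mutant arrays, so the groups overlapped. The mean was 8.55 ± 1.13 in wild type and 7.26 ± 0.36 in the mutants (SD, n = 4), a difference of -1.29 ± 0.48 (SE) and a fold of 0.408. Without WT3 the fold was 0.577. A second *Drd1* probe set gave a fold of 0.460, and its groups overlapped as well.

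*Drd2*, the dopamine receptor that lowers cyclic AMP in indirect pathway neurons, lies on chromosome 9 (49340360 to 49408177). It read 8.06, 8.01, 9.03 and 7.97 in WT1 to WT4 and 7.45, 7.39, 7.71 and 7.67 in KO7 to KO10. Apart from WT3 the wild type arrays were nearly level (SD 0.04 without it), and the groups did not overlap. The difference of -0.71 ± 0.22 (SE), a fold of 0.610, became -0.46 ± 0.09 and 0.727 without WT3.

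**Figure D1:**
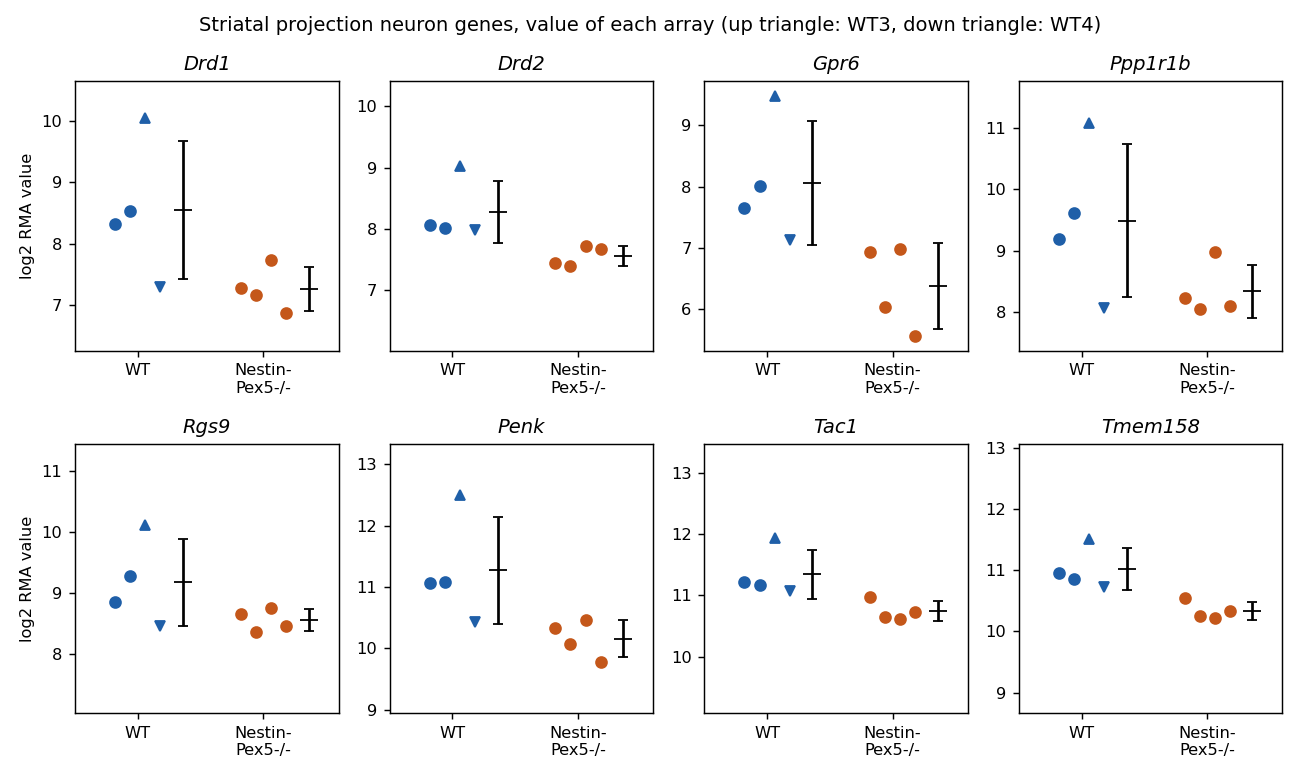
Each panel shows 1 gene, with its log2 RMA value (y axis, the same span in every panel) in the 4 wild type arrays (blue) and the 4 *Nestin-Pex5*-/- arrays (orange), and the mean with its SD as a bar. The up triangle (WT3) is the highest array of all in 8 of 8 genes, and the down triangle (WT4) is the lowest wild type array in 8 of 8.

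The signalling proteins behind the receptors overlapped between the genotypes. *Ppp1r1b* (chromosome 11, 98348406 to 98357796) encodes a phosphoprotein that protein kinase A turns into an inhibitor of a protein phosphatase. It read 9.18, 9.62, 11.09 and 8.06 in WT1 to WT4 and 8.22, 8.05, 8.98 and 8.09 in KO7 to KO10. Wild type thus held the highest array and also 1 of the lowest, since WT4 was below 3 of the 4 mutant arrays. The difference was -1.16 ± 0.53 (SE) with a fold of 0.449, smaller than the wild type SD of 1.25, and without WT3 it was -0.62 ± 0.36 with a fold of 0.650.

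*Rgs9* (chromosome 11, 109225348 to 109298181) speeds the shutting off of G proteins downstream of dopamine receptors. Its values were 8.85, 9.28, 10.12 and 8.46 in WT1 to WT4 and 8.66, 8.36, 8.76 and 8.47 in KO7 to KO10. WT4 lay inside the mutant range, and WT1 was only slightly above the highest mutant array. The fold was 0.653 with all arrays and 0.812 without WT3, the smallest change of the 8 genes in that setting. Of its other probe sets, 1 with a mean level of 5.95 differed by -0.65, and 1 with a mean level of 4.87 by -0.03, both levels being below the median of all genes.

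Of the neuropeptide precursors, *Penk* spread more widely in wild type (SD 0.88) than *Tac1* (SD 0.40). *Penk* (chromosome 4, 4133536 to 4138815), from which enkephalins are cut, read 11.06, 11.09, 12.50 and 10.43 in WT1 to WT4 and 10.33, 10.07, 10.47 and 9.77 in KO7 to KO10. WT4 fell just below KO9, so the groups overlapped by that 1 pair of arrays. The difference was -1.11 ± 0.37 (SE), a fold of 0.463, and -0.70 ± 0.20 without WT3, a fold of 0.616.

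*Tac1* (chromosome 6, 7555061 to 7562978), the precursor of substance P and neurokinin A, read 11.21, 11.16, 11.94 and 11.07 in WT1 to WT4 and 10.97, 10.64, 10.61 and 10.73 in KO7 to KO10. Its groups did not overlap, though WT4 and KO7 were close. The fold was 0.657, and 0.753 without WT3. A dim second probe set, with a mean level of 4.15, differed by only -0.07.

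*Tmem158* (chromosome 9, 123259057 to 123260789) encodes a membrane protein first described as induced by Ras signalling. Its values were 10.96, 10.86, 11.51 and 10.72 in WT1 to WT4 and 10.54, 10.25, 10.22 and 10.33 in KO7 to KO10. No mutant array reached a wild type array, and the wild type SD (0.34) was the smallest of the 8 genes. The difference was -0.68 ± 0.16 (SE), a fold of 0.626, and 0.702 without WT3. Both of its other probe sets also had every mutant array below every wild type array, with differences of -0.30 and -0.58.

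**Figure D2:**
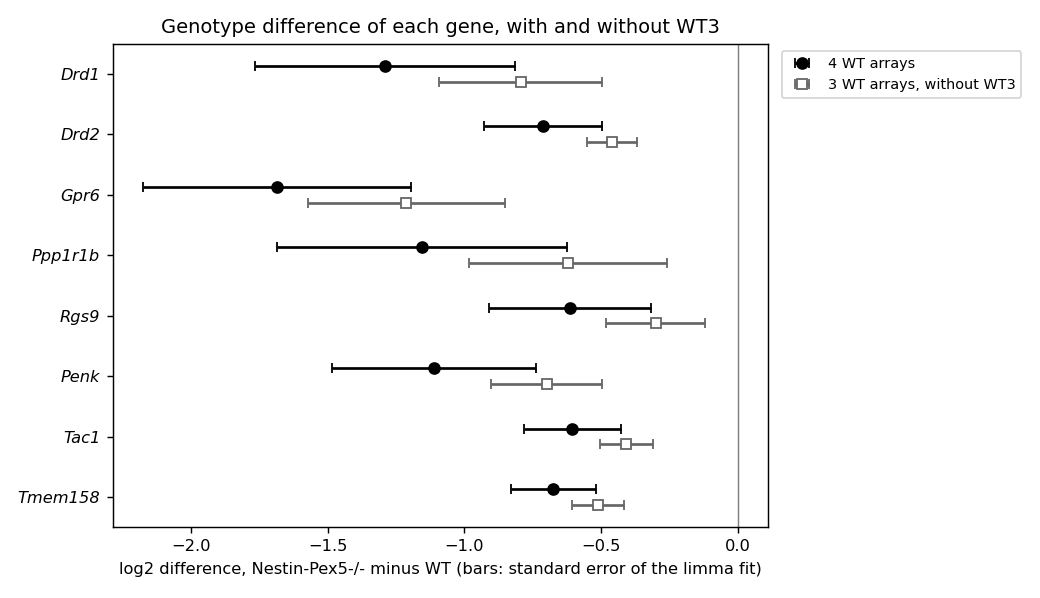
Log2 difference, *Nestin-Pex5*-/- minus wild type (x axis), for each of the 8 genes, with the standard error of the limma fit, from 4 wild type arrays (filled circles) and from 3 without WT3 (open squares). All 16 points lie below 0, and all 8 move towards 0 when WT3 is left out.

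Over the 8 genes, all were lower on average in *Nestin-Pex5*-/- mice, as were 61.7% of all genes. The median difference over the 8 was -0.91, and -0.03 over all genes. Without WT3 it was -0.57, against -0.04 over all genes, and again 8 of 8 were lower. The difference exceeded the wild type SD in 6 of the 8 genes, those other than *Ppp1r1b* and *Rgs9*.

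Every mutant array was below every wild type array in 4 of the 8 genes, which were *Drd2*, *Tac1*, *Gpr6* and *Tmem158*. The share of all genes with such a pattern was 4.51%. Because these genes were selected on this contrast, nothing is read from that count. It was also 4 without WT3 (7.28% of all genes) and 8 without WT4 (8.67% of all genes), since WT4 was the array that met the mutant range in each of the other 4. At an adjusted p under 0.05 in the limma fit, 144 genes were lower (0.791% of all) and 724 higher (3.98%). Calls of the 8 genes are not given, since they were selected on this contrast.

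In the wild type group the 8 genes shared their highest array, WT3, and their lowest, WT4. In the mutant group the highest and lowest array differed between genes. WT3 was the highest of the 8 arrays in all 8, a place it held in 11.3% of all genes. WT1, WT2 and WT3 were the top 3 arrays in 8 of 8. The selection of these genes on the genotype contrast favours genes high in a wild type array, so nothing is read from these counts. In WT3, *Ppp1r1b* was 4.39-fold above the average of WT1, WT2 and WT4, in place 2 of all genes, *Drd1* 3.98-fold (place 3), *Gpr6* 3.70-fold (place 5), *Penk* 3.13-fold (place 9), *Rgs9* 2.38-fold and *Drd2* 2.02-fold. The smallest excesses were 1.73-fold for *Tac1* and 1.58-fold for *Tmem158*. *Arpp21*, a cyclic AMP-regulated phosphoprotein of striatal neurons and a member of the further list of striatal genes described later, held place 1 with 4.42-fold.

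WT4, at the other end, was the lowest wild type array in 8 of 8 genes (19.4% of all genes), and in 4 of the 8 it was among the 4 lowest arrays of all. Inside the mutant group KO9 was the highest array in 6 of 8 genes (21.1% of all genes). In *Tac1* and *Tmem158*, however, KO9 was the lowest of all arrays. KO8 and KO10 were each the lowest of all arrays in 3. The mean log2 value over the 8 genes was 9.41, 9.57, 10.71 and 8.89 in WT1 to WT4 and 8.80, 8.49, 8.93 and 8.44 in KO7 to KO10. WT4 thus lay just below KO9. Each gene's SD was larger in wild type than in the mutants in 8 of 8, and in 4 of 8 once WT3 was left out.

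**Figure D3:**
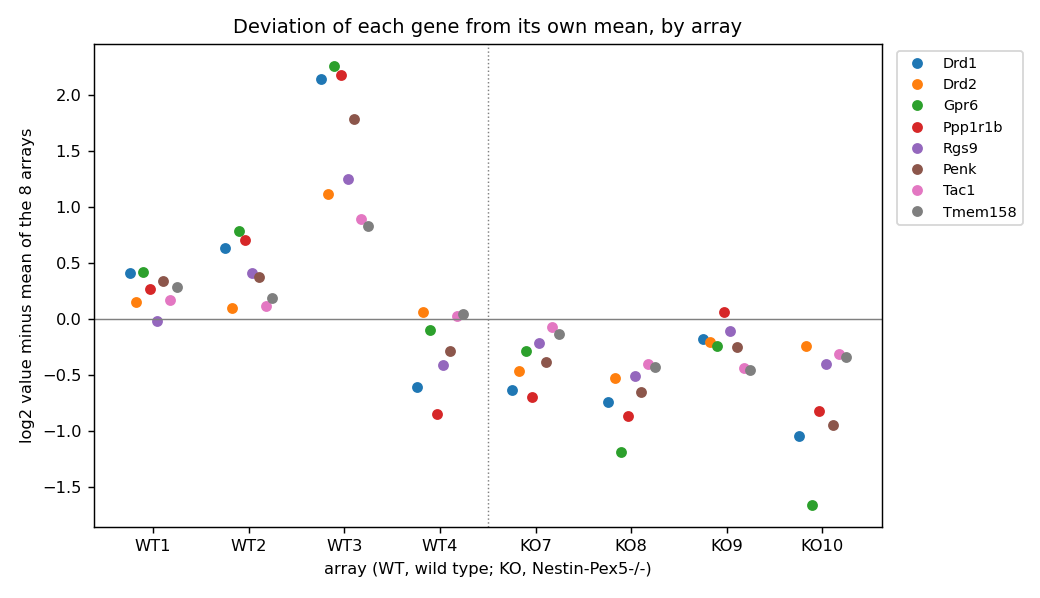
Log2 value of each gene minus its own mean over the 8 arrays (y axis) by array (x axis), 1 colour per gene. All 8 genes are highest in WT3, and the 4 mutant arrays and WT4 lie mostly below 0.

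The genes assigned here to each output pathway of the striatum were lower on average in *Nestin-Pex5*-/- mice. As they were selected on this contrast, nothing is read from that. The mean of *Drd1* and *Tac1* (direct pathway) differed by -0.95 between the genotypes, and that of *Drd2*, *Penk* and *Gpr6* (indirect pathway) by -1.17. Without WT3 these were -0.60 and -0.79. The first mean minus the second was 0.84, 0.81, 0.65 and 0.67 in WT1 to WT4 and 0.88, 1.07, 0.78 and 1.13 in KO7 to KO10. These ranges overlapped, and no test was run on them.

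A list of 40 other genes known from striatal projection neurons was compared in the same fit, and 34 of them were measured. All 34 were lower on average in *Nestin-Pex5*-/- mice, with a median difference of -0.39, and none passed the threshold in either direction (limma, lowest adjusted p 0.0635, for *Pdyn*). At an unadjusted p under 0.05, 17 of the 34 were lower, against 8.01% of all genes. In 5 of the 34 every mutant array was below every wild type array, against the 4.51% given above. This list too was chosen with earlier results of these data known, so these counts are a description only. Without WT3 the median was -0.25, 31 of 34 were lower and 2 passed. Limma with array weights called 13, and limma with a trended and robust prior called 1.

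WT3 was the highest of the 8 arrays in 29 of these 34 genes, and more than 2-fold above the average of WT1, WT2 and WT4 in 10, while WT4 was the lowest wild type array in 22. The 2 with the highest mean were *Gnal*, the G protein subunit that couples the D1 and *Adora2a* receptors to adenylyl cyclase in the striatum, with a difference of -0.38 ± 0.12 (SE, limma adjusted p 0.118), and *Hpca*, the neuronal calcium sensor hippocalcin, with -0.16 ± 0.34 (adjusted p 0.847). *Gnal* did not overlap between the genotypes and *Hpca* did.

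The 10 genes with the most negative differences in this list, named after their values were seen, came from several roles. The transcription factors were *Rarb*, a retinoic acid receptor (-1.01 ± 0.30 SE), the homeobox proteins *Meis2* (-0.94 ± 0.35) and *Isl1* (-0.65 ± 0.19), and the zinc finger protein *Bcl11b* (-0.64 ± 0.48). In cyclic AMP signalling, *Arpp21* differed by -1.05 ± 0.58, the G protein subunit *Gng7* by -0.81 ± 0.39 and the phosphodiesterase *Pde10a* by -0.70 ± 0.36. The others were *Slc35d3* (-0.97 ± 0.29), the actin cross-linking protein *Actn2* (-0.77 ± 0.22) and *Ido1*, an enzyme of tryptophan breakdown (-0.72 ± 0.29). No gene among them was called over all genes. The 2 that passed without WT3 were *Rarb* (-0.68, limma adjusted p 0.0411) and the muscarinic receptor *Chrm4* (-0.56, adjusted p 0.0405). Their mean levels, 7.73 and 5.31, were below the median of all genes. For *Chrm4* WT3 was the lowest wild type array (5.30), so leaving it out enlarged the difference, which was -0.48 with all arrays. In 31 of the 34 genes WT3 was above the average of WT1, WT2 and WT4 (43.3% of all genes), and the exceptions were *Chrm4*, *Isl1* and *Sfxn1*, with folds of 0.797, 0.914 and 0.918.

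**Figure D4:**
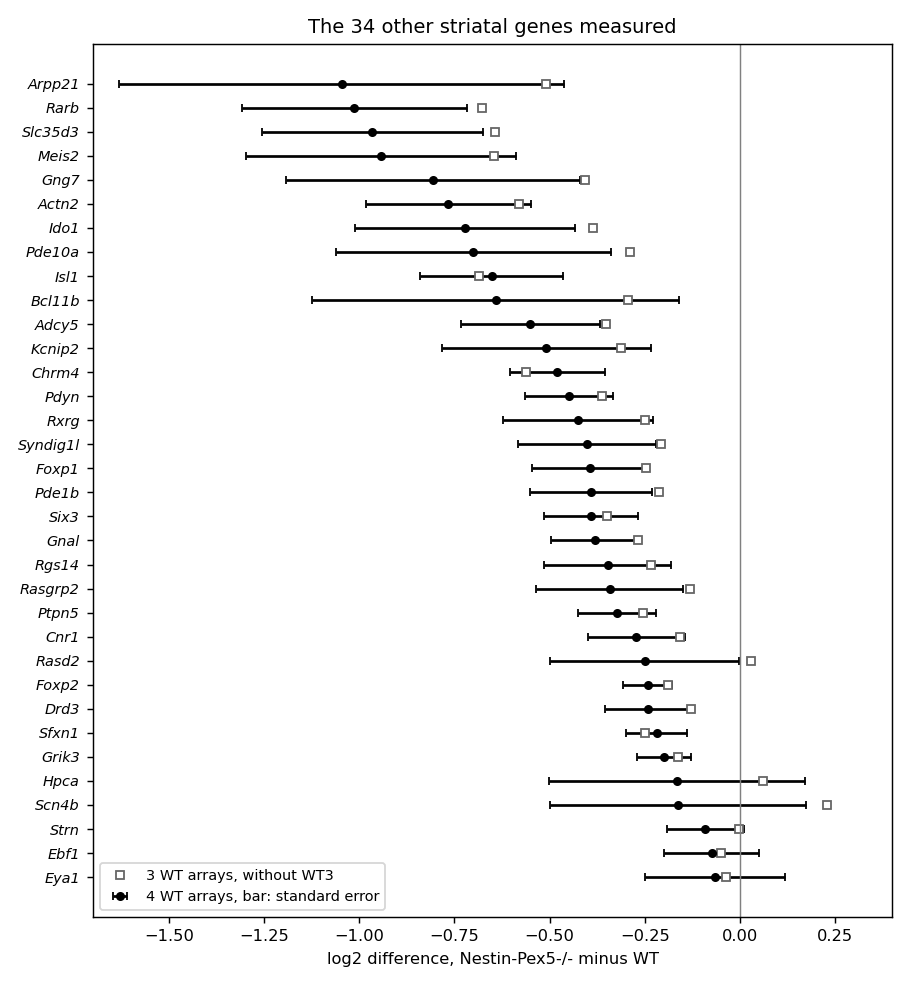
Log2 difference, *Nestin-Pex5*-/- minus wild type (x axis), of the 34 other striatal genes, ordered by size, with the standard error from 4 wild type arrays (filled circles) and the value without WT3 (open squares). All 34 filled circles are below 0, and 3 open squares are above it.

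The genes whose pattern over the 8 arrays was most like the mean of the 8 striatal genes were sought among 822 genes with a level at or above the median and an SD of at least 0.25. In order of Pearson's r they were *Lingo3* (0.986), *Cpne5* (0.986), *Prkar2b* (0.985), *Ngef* (0.984), *Rem2* (0.979), *Gpr83* (0.975), *Pde1b* (0.973), *Sez6* (0.972), *Lzts3* (0.970) and *Arpp19* (0.970). *Prkar2b* is a regulatory subunit of protein kinase A, *Rem2* a small GTPase, *Gpr83* a receptor, *Pde1b* a phosphodiesterase and member of the list above, and *Arpp19* a cyclic AMP-regulated phosphoprotein. The arrays share these values and 1 of them, WT3, lies far from the rest, so the values of r are a description only. On deviations from the genotype means, 9 of the 10 were the same genes, with *Strip2* in place of *Lzts3*. Without WT3, 7 of the 10 were shared. Of these genes *Sez6* alone passed the threshold over all genes (-0.57 ± 0.14 SE, limma adjusted p 0.0494), a call lost when any 1 array other than WT4 was left out (adjusted p up to 0.148).

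Markers of nearby regions and of other cell types were followed in the same arrays. These lists too were chosen with earlier results of these data known. In bulk tissue they cannot show which region or cells a transcript came from, since hypothalamic neurons may use some of the same genes. Of 8 genes of striatal and basal forebrain interneurons, 6 were lower on average, with a median difference of -0.39 (-0.35 without WT3), and 5 were lower and 1 higher at an unadjusted p under 0.05. *Nos1*, the neuronal nitric oxide synthase, alone passed the threshold (-0.38 ± 0.07 SE, limma adjusted p 0.0158), a call lost when WT1, WT2, KO9 or KO10 was left out (adjusted p up to 0.0603) or when a gene's probe sets were averaged. *Lhx8*, a transcription factor of cholinergic neurons named after its value was seen, differed by -1.29 ± 0.51 without overlap between the groups (limma adjusted p 0.231). KO10 set much of that size, at 4.84 against 6.91 to 7.07 in the other mutant arrays, while WT4 read 7.14.

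Of 8 septal and pallidal genes, 7 were lower on average, with a median of -0.25 (-0.30 without WT3), and an unadjusted p under 0.05 was reached by 3. The transcription factor *Nkx2-1* alone passed (-0.32 ± 0.07 SE, limma adjusted p 0.0370), and this call was lost when WT1, WT2, KO8, KO9 or KO10 was left out (adjusted p up to 0.117) and with a trended and robust prior.

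In the limma fit none of 15 measured genes of cortical and hippocampal projection neurons passed the threshold (0 at an unadjusted p under 0.05), and the median difference was 0.19 (0.11 without WT3). Their brightest, *Nrn1* and *Cck*, differed by 0.11 ± 0.10 and 0.24 ± 0.13 (SE). Neither did any of 12 thalamic genes pass (median 0.15, and 0.05 without WT3; 1 at that unadjusted p), with 0.02 ± 0.08 for the glutamate transporter *Slc17a6* and -0.05 ± 0.14 for *Calb2*. Of 8 genes of dopamine neurons and dopamine handling none passed (median -0.02, and 0.05 without WT3, with 0 at that unadjusted p). *Aldh1a1* differed by 0.07 ± 0.32 and *Maob* by -0.09 ± 0.15.

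None of 10 choroid plexus and ependyma genes passed in limma (median -0.13, and -0.11 without WT3; 2 at an unadjusted p under 0.05). Without WT4 the median was -0.50 and 2 passed as lower. *Ttr* differed by 0.76 ± 0.80 (SE), a direction set by WT4, since the difference was -0.24 ± 0.10 without it. *Clic6*, a chloride channel protein, differed by -0.59 ± 0.32.

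The lists also moved with single arrays. The mean of the 25 hypothalamic neuron genes was 8.14 in WT3, the lowest of the wild type arrays, which otherwise read 8.40 to 8.47, and the thalamic mean was 9.92 in WT3 against 10.13 to 10.57. In WT4 the choroid plexus and ependyma mean was 7.27, while WT1, WT2 and WT3 read 8.42 to 8.75, the cortical mean was 7.99 against 8.47 to 8.58, and the myelin mean was 11.96 against 11.19 to 11.43, inside the mutant range of 11.72 to 12.19. Arrays other than these moved too. The mean of the list of dopamine neurons and dopamine handling was 8.32 in WT2 against 9.34 to 9.62 in wild type otherwise. The cortical mean was 8.02 in KO7 against 8.52 to 8.77 in the remaining mutants. Single genes weighed heavily in these means. *Neurod6* of the cortical list read 4.06 in WT4 and 4.13 in KO7, against 7.49 to 8.74 in the remaining arrays. *Crym* of that list read 5.98 in WT4 against 8.04 to 9.25 in wild type otherwise. *Slc6a3* of the dopamine list read 5.64 in WT2 against 8.56 to 10.44 in the remaining arrays. The mean of 16 general neuronal genes was 12.20 in WT3 and 12.15 in WT4, against 12.15 in WT1 and 12.09 in WT2. The part of these shifts in the difference of the striatal genes was not tested.

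Over the genotypes, 24 of 25 hypothalamic neuron genes were lower on average, with a median difference of -0.19 (-0.25 without WT3), none past the threshold in limma and 3 at an unadjusted p under 0.05. Its brightest, *Pmch* and *Avp*, differed by -0.14 ± 0.15 and 0.00 ± 0.17 (SE), and *Avp* was the 1 gene of the list that was not lower. The most negative, *Nts*, named after its value was seen, differed by -0.77 ± 0.20 (limma adjusted p 0.0694). Its groups did not overlap. Of 16 general neuronal genes 14 were lower on average, with a median of -0.08, and 5 of them had an unadjusted p under 0.05. *Slc32a1*, the vesicular GABA transporter used by striatal and hypothalamic neurons alike, was the 1 that passed the threshold (-0.53 ± 0.10 SE, adjusted p 0.0164), a call lost when WT1, KO8 or KO9 was left out (adjusted p up to 0.0553) or when a gene's probe sets were averaged. The GABA-synthesising enzymes *Gad1* (-0.38 ± 0.09, adjusted p 0.0532) and *Gad2* (-0.38 ± 0.10, adjusted p 0.0578), named after their values were seen, did not overlap between the groups either.

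Of 11 measured microglial genes 10 passed as higher, with a median difference of 2.23, and *Ptprc* (3.42) and *Aif1* (2.23) were the highest and lowest of the 6 with the largest differences. The list mean ranged from 8.08 to 8.30 in wild type and from 10.20 to 10.49 in the mutants. Of 10 astrocyte genes, 3 passed as higher, *Gfap* (2.76), *Aqp4* (1.11) and *Sox9* (0.50), with a median over the list of 0.14. The call of *Sox9* was lost without KO8, without KO10 and with scaling to *Actb*. None of 9 myelin genes passed (median 0.45, 7 at an unadjusted p under 0.05; *Mbp* 0.13 ± 0.06, *Cnp* 0.45 ± 0.13), but 5 were higher without WT4 and 8 with array weights. The part of these glial changes in the lower values of the striatal genes was not tested. Among the wild type arrays the mean of the 8 striatal genes had an SD of 0.77 and the microglial mean one of 0.10.

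**Figure D5:**
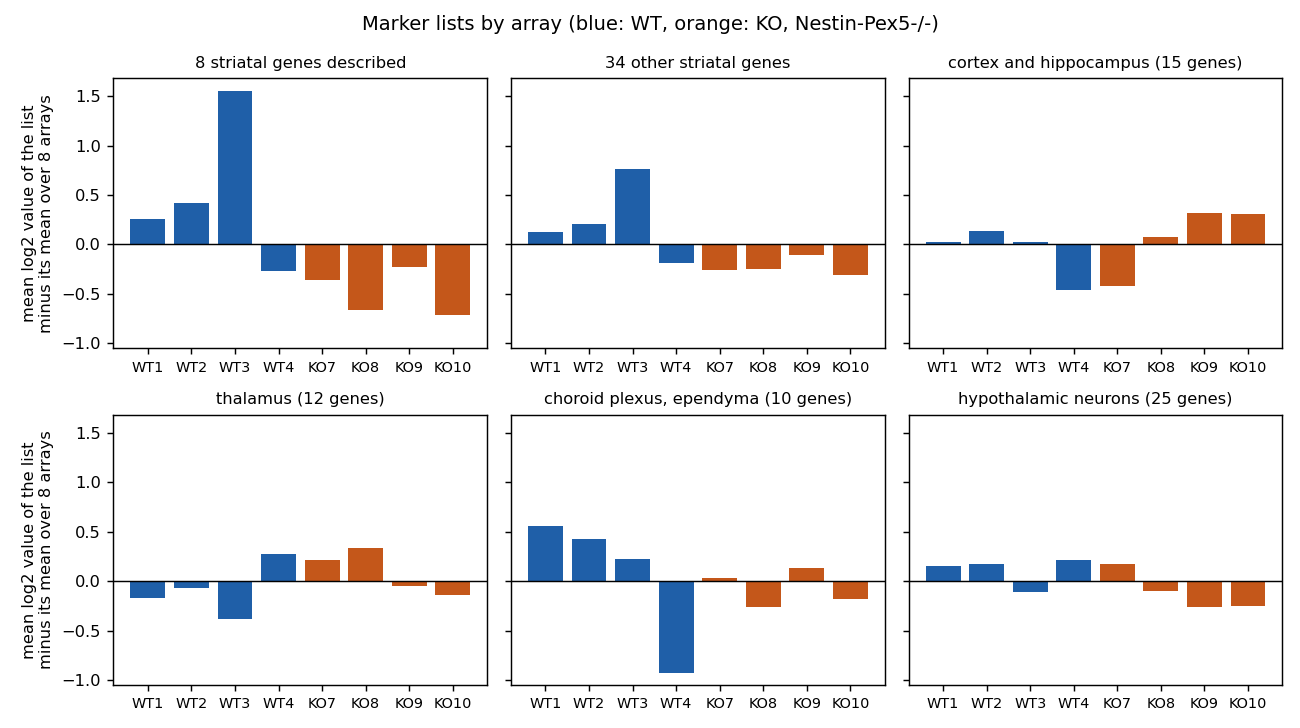
Mean log2 value of each marker list minus its mean over the 8 arrays (y axis), by array (x axis; blue, wild type; orange, *Nestin-Pex5*-/-). Both striatal lists are highest in WT3, the thalamic list is lowest there, and the choroid plexus and ependyma list is lowest in WT4.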

How the data were processed

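RNA of the hypothalamus of 8 mice, 4 per genotype, was measured on Affymetrix whole genome mouse arrays, 1 per mouse. The deposited values are log2 values that the authors made with RMA before deposition. Its version and any filter are not given in the sources used here. These values ranged from 2.91 to 15.03, with array medians of 6.70 to 6.84. The number of arrays limits the precision, and nothing in the labels says more on how the mice were sampled.

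Of 45101 probe sets, 34958 were paired with 1 gene by the platform annotation, 932 with several and 9211 are unnamed here. Of the first, 34754 had their symbol brought to GRCm38 by gene identifier. The brightest single-gene probe set stands for each of 18194 genes. No filter on level was applied.

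Differences were fitted by limma (version 3.58.1, under R 4.3.3; lmFit and eBayes, two-sided) with Benjamini-Hochberg adjustment over all genes and a threshold of 0.05. The procedure was tested on simulated data. Plots were made by matplotlib, version 3.10.9, under Python 3.11.15. The genes described and all lists were chosen with earlier results of these data known. The genes described are named in full. From a list, the genes past the threshold (up to 6 with the largest difference) or otherwise the 2 with the highest mean were to be named, and the 10 most similar by Pearson's r. Names outside this rule are marked. Alternatives covered the probe set, the scaling, the filter, limma's options and each array left out.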

Additional observations from a re-analysis of the deposited data

Results flagged for a closer look

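With 46 groups of 4 arrays examined, 3 had 1 array far from the others, by the gap to the nearest array as a share of the whole range. Chance gives about 1 such group in 20. In wild type, WT3 stood above the other arrays for *Drd2* with a ratio of 0.916 and for *Tac1* with 0.832. In *Nestin-Pex5*-/-, KO10 was the low array in the mean of the striatal and basal forebrain interneuron genes, 6.91 against 7.34 to 7.43, with a ratio of 0.836. *Lhx8* of this list read 4.84 in KO10, against 6.91 to 7.07 in the other mutant arrays.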

How the results depend on the processing

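The 119 differences of single striatal genes under the alternatives were all below 0, and none moved by more than the spread between replicates. Every alternative re-used the arrays on which these genes were selected, so nothing is read from that count. Without WT3 the median difference over the 8 genes still went from -0.91 to -0.57. Genes whose arrays did not overlap numbered 4, and 4 to 8 when 1 array was left out, the 8 being without WT4. Over all genes, 724 were higher and 144 lower. With only genes at or above the median level 416 were higher, with array weights 1351 were higher and 699 lower, and at an adjusted p under 0.01 467 were higher and 20 lower. Scaling to *Actb* or to 8 reference genes shifted the median of all genes by -0.13 and -0.11 and gave 1086 and 1746 lower genes. Each scaling shifts all genes of an array alike, so the median of the 8 striatal genes relative to that median (-0.88) could not change. Leaving out 1 array gave 46 (without KO10) to 331 (without WT4) lower genes, with 50 without KO9, 60 without KO8 and 68 without WT1 or WT2. The count of lower genes among the 34 other striatal genes, 0, became 1 at or above the median level and with the trended and robust prior, and 13 with *Actb*, reference gene or weighted fits. When 1 array was left out it was 0 to 10, with 10 without WT4, 3 without KO7, 2 without WT3 and 1 without KO9. Spearman's rank correlation kept 4 of the 10 most similar genes. The cause was not tested. Of 352 counts for the remaining lists 51 moved by more than 1.5 times. Taking every probe set of these genes at or above the median level (9, of which 5 did not overlap) and the likeness without WT3 were chosen after seeing the data. No paired analysis was possible because the genotypes share no replicate numbers. The signal over background of single probe sets is not known, which limits what the dim ones show.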

Other observations

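Each striatal gene correlated with the mean of the other 7 over the 8 arrays with Pearson's r between 0.918 (*Tmem158*) and 0.995 (*Penk*), and between 0.740 (*Tac1*) and 0.981 (*Penk*) without WT3. Within the 4 mutant arrays r was 0.04 for *Tac1* and *Tmem158* and 0.17 for *Drd2*. For the remaining genes it lay between 0.75 (*Ppp1r1b*) and 0.93 (*Penk*). These values are descriptive, since the genes share arrays. The genes were also selected on the genotype contrast, which by itself raises r over arrays of both genotypes.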
